A study of Mus musculus with 24 samples.

Results

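Expression of 41 genes of glutathione and antioxidant defence was compared in mouse liver between a choline- and folate-deficient diet and its control diet in 3 inbred strains. The genes were chosen by name: every gene probe of the array design whose listed symbol is 1 of the 41 was taken, which gave 62 probes, and all 41 genes were among the 15638 genes tested, out of 23938 named genes on the array. The 6 groups held 4 arrays each: A/J, C3H/HeJ and WSB/EiJ males on the deficient (CFD) diet, and males of the same 3 strains on the control diet. The deficient diet was an amino-acid-defined, iron-supplemented formula with 0.17% methionine and no choline or folic acid. The control diet was that formula with folic acid at 2 mg/kg, choline bitartrate at 0.3% and methionine raised to 0.4%, so that the diets differed within each strain in these 3 nutrients. Feeding began at 8 weeks of age and lasted 12 weeks, and livers were taken at 20 weeks. The labels list replicates as separate samples without saying whether each was a different mouse, and the p-values therefore cover only the spread among samples.

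Glutathione is a small thiol peptide that liver cells make from glutamate, cysteine and glycine, use to conjugate reactive compounds through glutathione transferases and to reduce peroxides through glutathione peroxidases, and regenerate with glutathione reductase. Catalase, superoxide dismutases and the thioredoxin system handle oxidants beside it. Many of these genes are targets of the transcription factor Nrf2 (encoded by Nfe2l2), which its inhibitor Keap1 holds for degradation until oxidants or electrophiles modify Keap1. Hepatocytes hold much of the body's glutathione, and their cysteine comes in part from dietary methionine.

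Each array measured Cy3-labelled RNA of 1 sample in 1 colour. Values are spot intensities on a linear scale after each array was brought to the same 75th percentile, a gene is represented by its brightest probe, and values of a group are given in the order of replicates 1 to 4. A diet effect is the log2 fold change of CFD over control, given ± its SE. It is called when the adjusted p of limma, a linear model fitted across all 15638 genes with Benjamini-Hochberg correction, is under 0.05. On single arrays 44.4% to 56.0% of the gene spots read well above background. Hepatocyte markers such as albumin were above background on every array. A/J CFD 4 and A/J control 4 stood apart: on 6142 genes that the diet moved alike in the other 2 strains a mean signed log2 level put them at -1.96 and -1.94, between those of the other A/J CFD arrays (-1.76 to -1.50) and the other A/J controls (-2.25 to -2.10). C3H/HeJ CFD 4 had the lowest such level of its group, at -1.80 beside -1.48 to -1.12 in CFD 1 to 3.

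With arrays at a common 75th percentile, more of these genes fell on the deficient diet than rose, most of all in WSB/EiJ. Under spike-in scaling more rose than fell in every strain. That scaling also shifted the median of all genes upward, and the share of all genes called there is not given. The reversal therefore does not set the 41 genes apart. The counts that follow are at the 75th percentile. In WSB/EiJ livers 7 of the 41 genes rose, beside 24.5% of all tested genes, and 27 fell, beside 47.6%. In C3H/HeJ 11 rose, beside 18.1% of all genes, and 15 fell, beside 27.1%. In A/J 5 rose, beside 5.92%, and 7 fell, beside 4.39%, and the share of all genes called in either direction was 72.2% in WSB/EiJ, 45.2% in C3H/HeJ and 10.3% in A/J. The median log2 change over the 41 genes was -0.74 in WSB/EiJ, -0.17 in C3H/HeJ and -0.25 in A/J, beside -0.29, -0.12 and -0.05 over all genes. With A/J CFD 4 and A/J control 4 left out, 4 genes rose and 7 fell in A/J, beside 15.4% of all genes. In a whole-liver sample, fewer cells of a type and less RNA per cell cannot be told apart.

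These splits depend on how the arrays are scaled. Under quantile normalization 10 rose and 16 fell in WSB/EiJ, 12 and 7 in C3H/HeJ, and 5 and 6 in A/J. Scaling to the array's E1A control probes, which read added spike-in RNA, shifted the median of all genes to 0.67 in WSB/EiJ, 0.32 in C3H/HeJ and 0.29 in A/J, and then 18 of the 41 rose and 10 fell in WSB/EiJ, 18 and 4 in C3H/HeJ, and 7 and 4 in A/J. The share of all genes called under quantile and spike-in scaling is not given here, so these counts do not set the 41 genes apart. Over 6 scalings, the deposited table and a second background correction among them, 6 rises and 10 falls held throughout in WSB/EiJ, 10 and 4 in C3H/HeJ, and 2 and 4 in A/J. The lasting falls in WSB/EiJ were Cat, Gsta3, Gstk1, Gstm4, Gstm6, Gsto1, Gstp1, Gstt3, Mgst1 and Sod1, and the lasting rises Gpx3, Gpx7, Gss, Hmox1, Nfe2l2 and Srxn1. Of the 27 falls in WSB/EiJ, 12 turned positive under spike-in scaling. The shares of all genes that held under all 6 scalings, or turned positive, are not given here. These counts therefore do not set the 41 genes apart either.

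**Figure D1:**
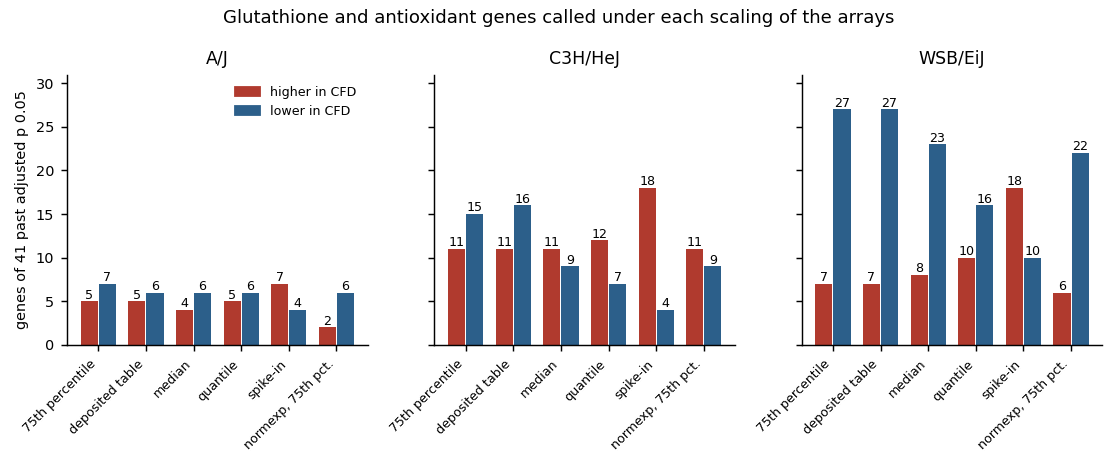
Number of the 41 genes called higher (red) or lower (blue) in CFD than in control livers at an adjusted p of 0.05 under 6 scalings of the same arrays, by strain. In WSB/EiJ the count of lower genes is 27 under the 75th percentile, 16 under quantile and 10 under spike-in scaling, where rises (18) outnumber falls. The share of all genes called under each scaling is not shown.

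Called in the same direction in all 3 strains were 4 rises, Gpx3, Gpx7, Hmox1 and Srxn1 (4.17% of all genes rose in all 3 strains), and 7 falls, Cat, Gsta3, Gsta4, Gstm1, Gstm6, Gstm7 and Gstt3 (3.18% of all genes). Under all 6 scalings only the rises of Hmox1 and Srxn1 and the fall of Gstm6 were called in every strain. The share of all genes that did so is not given here. The A/J calls of Gpx7, Cat and Hmox1 were lost on leaving out any of 15, 14 and 6 arrays. A second Hmox1 probe was called in WSB/EiJ alone. Nqo1 was the only member called in opposite directions, beside 1.33% of all genes, and its WSB/EiJ fall was lost on leaving out any of 13 arrays. Of the 41, 11 fell in WSB/EiJ and were not called in the other 2 strains, a share near the 21.9% of all genes that did so. Gpx2, Gsta2, Gstm3 and Gstm5 were called in no strain, beside 22.1% of all genes, but each of the 4 was called in at least 1 strain when 1 array was left out. The groups did not overlap for 8 genes that were higher and 24 that were lower in WSB/EiJ (68.3% of all genes did not overlap), 10 and 6 in C3H/HeJ (32.7%), and 5 and 12 in A/J (17.8%).

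**Figure D2:**
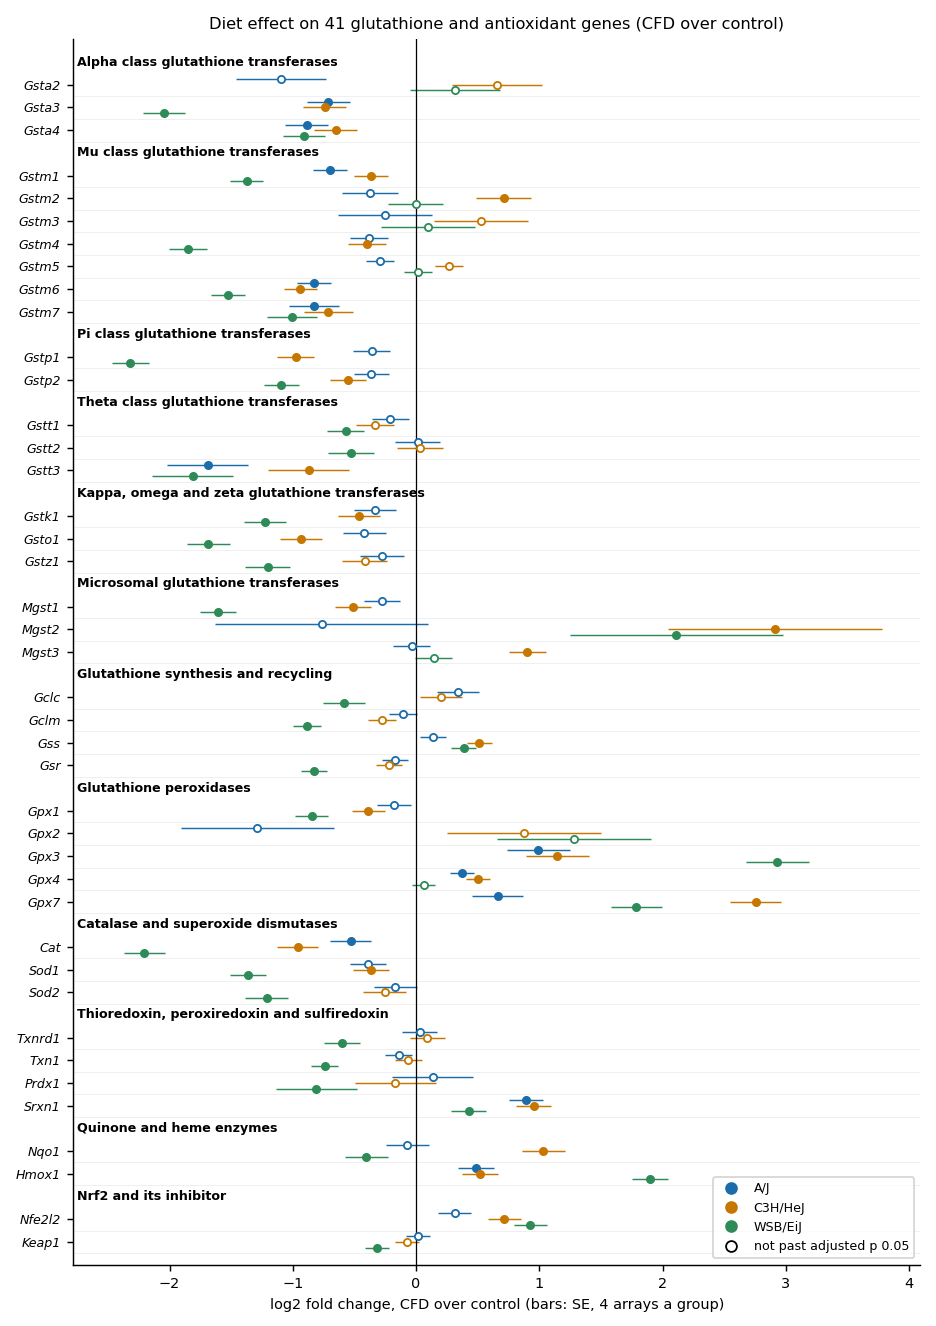
Diet effect on each of the 41 genes as the log2 fold change of CFD over control (horizontal axis, bars are SE, 4 arrays a group), grouped by role and coloured by strain; open circles missed an adjusted p of 0.05. WSB/EiJ (green) lies furthest left for Gstp1 (-2.32), Cat (-2.20) and Gsta3 (-2.05), while Gpx3 (2.93) lies right. Under spike-in scaling 12 of the 27 WSB/EiJ falls, Gclc and Keap1 among them, turn positive. The share of all called falls that turn positive is not shown.

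Nfe2l2, the Nrf2 gene itself (probe at mm9 chr2:75513771-75513830), rose in WSB/EiJ and C3H/HeJ and did not pass the test in A/J. Nfe2l2 in WSB/EiJ livers read 5086, 5446, 5038 and 4834 on the CFD arrays, against 2659, 2582, 2509 and 2991 on the control arrays. Nfe2l2 in C3H/HeJ livers read 3733, 4118, 3553 and 3728 on the CFD arrays, against 2365, 2223, 2735 and 1936 on the control arrays. Nfe2l2 in A/J livers read 3368, 3215, 3868 and 3032 on the CFD arrays, against 3001, 2402, 3568 and 2067 on the control arrays. All CFD arrays lay above all controls in WSB/EiJ and C3H/HeJ, and the groups overlapped in A/J. The log2 changes were 0.93 ± 0.13 (adjusted p = 4.07e-06) in WSB/EiJ, 0.72 ± 0.13 (adjusted p = 0.000311) in C3H/HeJ and 0.31 ± 0.13 (adjusted p = 0.141) in A/J. The A/J change passed the test without A/J control 3 (adjusted p = 0.0370). The change was larger in WSB/EiJ than in A/J, with a difference of 0.61 ± 0.19 (adjusted p = 0.0118).

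Keap1, the inhibitor that presents Nrf2 for degradation, fell slightly in WSB/EiJ and was not called in the other strains. Keap1 in WSB/EiJ livers read 2617, 2716, 2984 and 2283 on the CFD arrays, against 3271, 2961, 3299.9 and 3618 on the control arrays. Keap1 in C3H/HeJ livers read 4792, 4431, 4533 and 5287 on the CFD arrays, against 5003, 4562, 4982 and 5473 on the control arrays. Keap1 in A/J livers read 4422, 4918, 4442 and 4777 on the CFD arrays, against 4985, 4365, 5127 and 3977 on the control arrays. The ranges met in every strain, with 1 WSB/EiJ CFD array just above the lowest control. For Keap1 the log2 change was -0.31 ± 0.10 (adjusted p = 0.00747) in WSB/EiJ, which turned to 0.65 under spike-in and 0.09 under quantile scaling, -0.07 ± 0.10 (adjusted p = 0.57) in C3H/HeJ and 0.01 ± 0.10 (adjusted p = 0.941) in A/J.

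Nrf2 binds DNA at antioxidant response elements, whose core was searched as TGACNNNGC on both strands in RefSeq promoter windows of GRCm38.p6, from 250 bases before to 50 after each start site. Windows were listed for 36 of the 41 genes (not for Gsta4, Gstt2, Gclc, Gsr and Hmox1), 49 windows in all, and 10 of them (20.4%) held the letters, beside 12.4% of 32851 windows of all genes. Of those 10 genes, Nfe2l2 and Srxn1 rose in at least 2 strains, Gclm, Gsta3, Gstm7, Mgst1, Prdx1, Sod1 and Txnrd1 fell in at least 1 and never rose, and Gstm5 was called in none. The upstream part of the Nfe2l2 window (chr2:75704664-75704913, minus strand) and the stretch of Srxn1 that holds the match (chr2:152105538-152105567, plus strand, bases 15 to 44 after the start) are shown because these genes rose, with the match in capitals. A match describes letters, not binding.
Nfe2l2: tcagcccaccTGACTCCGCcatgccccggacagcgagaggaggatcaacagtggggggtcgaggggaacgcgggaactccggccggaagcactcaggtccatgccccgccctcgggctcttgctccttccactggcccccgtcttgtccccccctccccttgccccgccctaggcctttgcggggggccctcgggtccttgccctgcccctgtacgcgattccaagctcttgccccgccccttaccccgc
Srxn1: gcgggcagtgggcaGCTAGGTCAgagtgag

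Srxn1 encodes sulfiredoxin, which repairs over-oxidised peroxiredoxins and is a known Nrf2 target. The gene (probe at mm9 chr2:151937009-151937068) rose in all 3 strains. Srxn1 in WSB/EiJ livers read 12898, 11829, 11857 and 11795 on the CFD arrays, against 8295, 9296, 10479 and 8108 on the control arrays. Srxn1 in C3H/HeJ livers read 10281, 9143, 9574 and 9965 on the CFD arrays, against 4253, 5537, 5115 and 5257 on the control arrays. Srxn1 in A/J livers read 12589.7, 8873, 13025 and 7416 on the CFD arrays, against 5614, 4848, 5628 and 5951 on the control arrays. No CFD array lay among the controls of its strain, and among the A/J CFD arrays 1 and 3 were well above 2 and 4. The log2 changes were 0.43 ± 0.14 (adjusted p = 0.0107) in WSB/EiJ, 0.96 ± 0.14 (adjusted p = 3.25e-05) in C3H/HeJ and 0.89 ± 0.14 (adjusted p = 0.000497) in A/J. WSB/EiJ did not differ from A/J past the threshold (-0.47 ± 0.20, adjusted p = 0.059), though it did without A/J CFD 2 or 4 or WSB/EiJ control 4 (adjusted p 0.00798 to 0.0499). The rise held in each strain under all 6 scalings.

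Hmox1 encodes heme oxygenase 1, which degrades heme and is induced through Nrf2 and by other signals (probe at mm9 chr8:77624207-77624266). Hmox1 in WSB/EiJ livers read 2573, 3191, 2799.6 and 2478 on the CFD arrays, against 735, 675, 551 and 1086 on the control arrays. Hmox1 in C3H/HeJ livers read 1608, 1585, 1739 and 1439 on the CFD arrays, against 1042, 1130.0, 998 and 1281 on the control arrays. Hmox1 in A/J livers read 2239.5, 2073, 2412 and 2303 on the CFD arrays, against 1764, 1672, 1467 and 1536 on the control arrays. CFD and control ranges were apart in each strain, and 3 of the 4 WSB/EiJ controls were lower than every other array. Hmox1 had a log2 change of 1.90 ± 0.15 (adjusted p = 1.23e-09) in WSB/EiJ, 0.52 ± 0.15 (adjusted p = 0.00695) in C3H/HeJ and 0.49 ± 0.15 (adjusted p = 0.0358) in A/J. The WSB/EiJ change exceeded that in A/J by 1.41 ± 0.21 (adjusted p = 3.03e-05) and that in C3H/HeJ by 1.38 ± 0.21 (adjusted p = 0.000114). A second, dimmer probe gave 0.95 (called), 0.04 and 0.24 (not called) in the same strains. Leaving out any of 6 A/J arrays (control 2, 3 or 4, CFD 1, 3 or 4) ended the A/J call, with adjusted p of 0.0552 to 0.105.

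Macrophages degrade heme with the same enzyme, and their marker genes moved with Hmox1. Of 15 macrophage and monocyte markers, 14 rose in WSB/EiJ (beside 24.5% of all genes), 11 in C3H/HeJ (18.1%) and 7 in A/J (5.92%), with none falling. Their summed intensity was 38623 to 45162 in WSB/EiJ CFD livers, against 6709 to 7277 in controls. It was 20390.2 to 32746 in C3H/HeJ CFD livers, against 12330.4 to 15551 in controls. In A/J it was 28455 to 36015 in CFD livers, against 19072 to 28147 in controls. Gpnmb was above background on every CFD array and on no control array, and the part of these cells in the Hmox1 result was not tested. Gpnmb, Ccr2 and Itgax passed the background filter only through CFD groups, so any rise counted for them is partly built in.

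Nqo1, the quinone reductase used as a standard Nrf2 readout (probe at mm9 chr8:109912440-109912499), moved in different directions. Nqo1 in WSB/EiJ livers read 537, 415, 460.0 and 387 on the CFD arrays, against 549, 608, 679 and 536 on the control arrays. Nqo1 in C3H/HeJ livers read 201, 199, 245 and 196 on the CFD arrays, against 129, 117, 105 and 69.3 on the control arrays. Nqo1 in A/J livers read 255, 207, 245 and 149.8 on the CFD arrays, against 207, 242, 195 and 241 on the control arrays. In C3H/HeJ every CFD array was above every control, and in the other strains the ranges overlapped. The gene rose in C3H/HeJ (1.03 ± 0.18, adjusted p = 0.000142), fell in WSB/EiJ (-0.40 ± 0.18, adjusted p = 0.0466) and was at -0.07 ± 0.18 (adjusted p = 0.832) in A/J. The C3H/HeJ change exceeded the A/J change by 1.10 ± 0.25 (adjusted p = 0.0162), and WSB/EiJ minus C3H/HeJ was -1.44 ± 0.25 (adjusted p = 0.00045). The WSB/EiJ fall was lost on leaving out any of 13 of the 24 arrays (adjusted p 0.0502 to 0.126) and was 0.56 under spike-in scaling, whereas the C3H/HeJ rise held under all 6 scalings.

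Both genes of the rate-limiting step of glutathione synthesis fell in WSB/EiJ. Gclc encodes the catalytic subunit of glutamate-cysteine ligase. Gclc in WSB/EiJ livers read 7201, 7036, 7318 and 7373 on the CFD arrays, against 9684, 10959.9, 10059 and 12895 on the control arrays. Gclc in C3H/HeJ livers read 6253, 5227, 6673 and 5314 on the CFD arrays, against 5915, 4378, 5457 and 4671 on the control arrays. Gclc in A/J livers read 7988, 12094, 7911 and 9099 on the CFD arrays, against 9225, 7163, 8543 and 4805 on the control arrays. The WSB/EiJ CFD arrays were close together and all below the controls, and the ranges overlapped elsewhere. The log2 change in WSB/EiJ was -0.58 ± 0.17 (adjusted p = 0.00464), with positive values under spike-in (0.38) and quantile (0.0082) scaling. It was 0.20 ± 0.17 (adjusted p = 0.343) in C3H/HeJ and 0.34 ± 0.17 (adjusted p = 0.213) in A/J. WSB/EiJ differed from A/J by -0.92 ± 0.24 (adjusted p = 0.0041) and from C3H/HeJ by -0.79 ± 0.24 (adjusted p = 0.0217).

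Gclm encodes the modifier subunit of the same ligase. Gclm in WSB/EiJ livers read 344, 394, 381 and 329 on the CFD arrays, against 697, 707, 609 and 663 on the control arrays. Gclm in C3H/HeJ livers read 689, 691, 783 and 745 on the CFD arrays, against 974, 868, 842 and 841 on the control arrays. Gclm in A/J livers read 651, 1025, 816 and 805 on the CFD arrays, against 893, 882, 995 and 748 on the control arrays. CFD arrays lay below the controls in WSB/EiJ and C3H/HeJ, and only the first of these passed the test with all arrays in the fit (C3H/HeJ passed without A/J control 4, CFD 1 or CFD 2 or C3H/HeJ CFD 3, adjusted p 0.0294 to 0.0480). The diet effect on Gclm was -0.89 ± 0.11 (adjusted p = 9.37e-07) in WSB/EiJ (0.075 under spike-in scaling), -0.28 ± 0.11 (adjusted p = 0.0526) in C3H/HeJ and -0.10 ± 0.11 (adjusted p = 0.595) in A/J, and WSB/EiJ differed from A/J by -0.78 ± 0.16 (adjusted p = 0.000673) and from C3H/HeJ by -0.61 ± 0.16 (adjusted p = 0.0094).

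Gsr encodes glutathione reductase, which regenerates glutathione from its disulfide. Gsr in WSB/EiJ livers read 11202, 11183, 10245 and 12441 on the CFD arrays, against 19402, 19308, 22928 and 18514 on the control arrays. Gsr in C3H/HeJ livers read 9142, 9383, 11703 and 11575 on the CFD arrays, against 11536, 12150.0, 11676 and 12996 on the control arrays. Gsr in A/J livers read 11913, 10747, 12506 and 10192 on the CFD arrays, against 11521, 14958, 12346 and 12382 on the control arrays. The WSB/EiJ controls were the highest group, and the WSB/EiJ CFD arrays lay in the range of the other strains. Its log2 change was -0.83 ± 0.11 (adjusted p = 8.57e-07) in WSB/EiJ (0.13 under spike-in scaling), -0.22 ± 0.11 (adjusted p = 0.0969) in C3H/HeJ, where a second probe was called (-0.26), and -0.17 ± 0.11 (adjusted p = 0.31) in A/J. The WSB/EiJ change differed from that in A/J by -0.66 ± 0.15 (adjusted p = 0.00148) and from that in C3H/HeJ by -0.61 ± 0.15 (adjusted p = 0.00587). Gss, the synthetase of the second step, rose in C3H/HeJ (0.51) and WSB/EiJ (0.39).

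**Figure D3:**
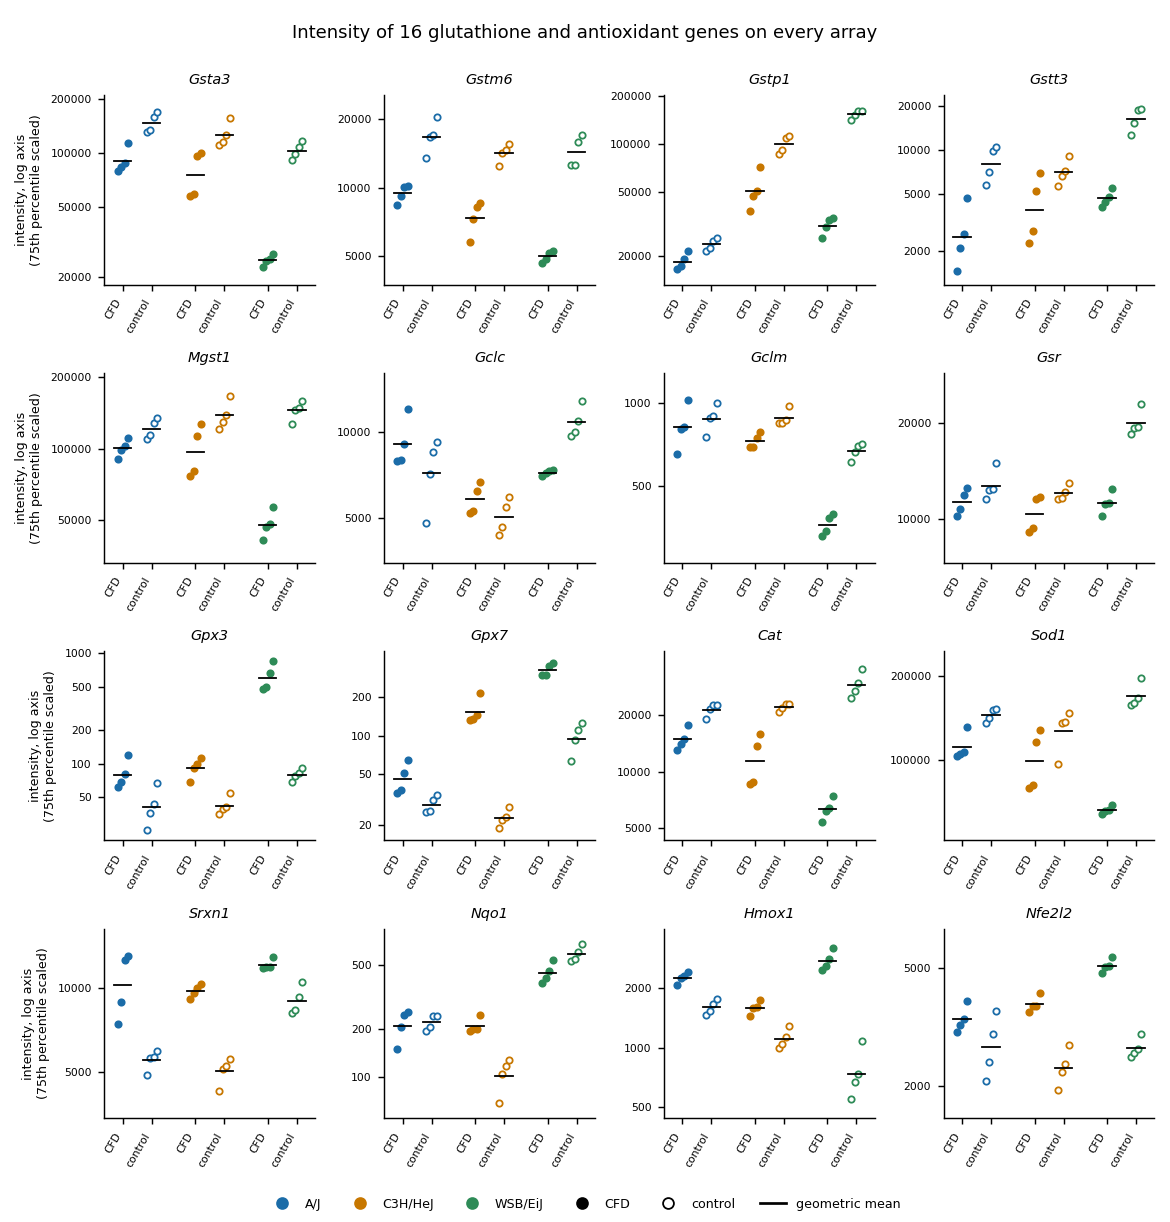
Intensity of 16 of the genes on every array (vertical axis, logarithmic), with CFD arrays filled, control arrays open and the geometric mean of each group as a bar. Gstp1 in A/J controls (21509 to 25775) sits far below the other control groups, Hmox1 and Gpx3 are highest in WSB/EiJ CFD livers, and C3H/HeJ CFD arrays spread widely for Cat and Gsta3.

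Glutathione transferases conjugate electrophiles with glutathione. Of the 21 members, 15 fell and 1 rose in WSB/EiJ, beside 47.6% and 24.5% of all genes. In C3H/HeJ 12 fell and 3 rose, beside 27.1% and 18.1%, and 6 fell in A/J, beside 4.39%. The same shares apply to each class below. The alpha and mu classes are abundant in liver. Of 3 alpha members, 2 fell in each strain. Gsta3 in WSB/EiJ livers read 22774, 25272, 27083 and 24844 on the CFD arrays, against 98230.4, 91141, 117239 and 107309 on the control arrays. Gsta3 in C3H/HeJ livers read 58862, 57121, 100164 and 96209.7 on the CFD arrays, against 115474, 157501, 111129 and 125636 on the control arrays. Gsta3 in A/J livers read 83596, 88006, 78655 and 113972 on the CFD arrays, against 168839.9, 133889, 159646 and 131221 on the control arrays. No range of CFD arrays met that of its controls, and C3H/HeJ CFD 1 and 2 were well below CFD 3 and 4. The log2 changes were -2.05 ± 0.17 (adjusted p = 3.96e-09) in WSB/EiJ, -0.74 ± 0.17 (adjusted p = 0.00185) in C3H/HeJ and -0.71 ± 0.17 (adjusted p = 0.0113) in A/J. WSB/EiJ differed from A/J by -1.34 ± 0.24 (adjusted p = 0.000244) and from C3H/HeJ by -1.30 ± 0.24 (adjusted p = 0.000803), and the A/J call was lost without CFD 3 (adjusted p 0.0502).

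Gsta4 metabolises lipid peroxidation aldehydes, and its log2 change was -0.91 in WSB/EiJ (0.053 under spike-in scaling), -0.65 in C3H/HeJ and -0.89 in A/J. Gsta2 was variable. Gsta2 in WSB/EiJ livers read 7729, 5624, 7605 and 5649 on the CFD arrays, against 7457, 3300.4, 6843 and 4578 on the control arrays. Gsta2 in C3H/HeJ livers read 2396, 4618, 3688 and 2026 on the CFD arrays, against 1629, 1258, 2357 and 2756 on the control arrays. Gsta2 in A/J livers read 2213, 1435, 2689 and 1083 on the CFD arrays, against 2516, 6379.6, 4919 and 2428 on the control arrays. Arrays of a group varied widely and the ranges overlapped in every strain. For Gsta2 the log2 change was 0.32 ± 0.36 (adjusted p = 0.439) in WSB/EiJ, 0.66 ± 0.36 (adjusted p = 0.146) in C3H/HeJ and -1.09 ± 0.36 (adjusted p = 0.0606) in A/J. WSB/EiJ differed from A/J by 1.41 ± 0.51 (adjusted p = 0.029), a call that was lost on leaving out any of 7 A/J or WSB/EiJ arrays (adjusted p 0.0503 to 0.0705).

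Of 7 mu class members, 4 fell in WSB/EiJ, 4 fell and Gstm2 rose (0.71) in C3H/HeJ, and 3 fell in A/J. Gstm5 was called in none (0.02, 0.27 and -0.29 in WSB/EiJ, C3H/HeJ and A/J), and the Gstm2 call was lost without C3H/HeJ control 3, CFD 2 or CFD 3 (adjusted p 0.0511 to 0.0719). Gstm1 in WSB/EiJ livers read 33453, 35719.6, 31468 and 32554 on the CFD arrays, against 82523, 83938, 96284 and 83041 on the control arrays. Gstm1 in C3H/HeJ livers read 36552, 49111, 49394 and 31156 on the CFD arrays, against 55778, 43808, 53474 and 58242 on the control arrays. Gstm1 in A/J livers read 45524, 39595, 51596 and 47084 on the CFD arrays, against 75905, 82263, 78379 and 62061 on the control arrays. CFD and control arrays were apart in WSB/EiJ and A/J and overlapped in C3H/HeJ. The log2 changes were -1.37 ± 0.14 (adjusted p = 3.08e-08) in WSB/EiJ, -0.37 ± 0.14 (adjusted p = 0.0331) in C3H/HeJ (0.074 under spike-in scaling) and -0.70 ± 0.14 (adjusted p = 0.00255) in A/J. WSB/EiJ differed from C3H/HeJ by -1.01 ± 0.19 (adjusted p = 0.000907) and from A/J by -0.68 ± 0.19 (adjusted p = 0.00683), a value that was 0.048 under quantile scaling. The C3H/HeJ call was lost without control 1, 3 or 4 or CFD 1 or 4 (adjusted p 0.0628 to 0.123). The files place this probe on chromosome 5, unlike the rest of the cluster, and a second Gstm1 probe gave -1.40, -0.44 and -0.61 in WSB/EiJ, C3H/HeJ and A/J.

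Gstm4, of the mu cluster on chromosome 3, fell most in WSB/EiJ. Gstm4 in WSB/EiJ livers read 746, 582, 838 and 546 on the CFD arrays, against 2451, 2257, 2768 and 2178 on the control arrays. Gstm4 in C3H/HeJ livers read 854, 937, 1109 and 1050.2 on the CFD arrays, against 1309, 986, 1495 and 1459 on the control arrays. Gstm4 in A/J livers read 1092, 1090.0, 888 and 1233 on the CFD arrays, against 1496, 1182, 1611 and 1320.2 on the control arrays. The WSB/EiJ controls were the highest group and its CFD arrays the lowest. Gstm4 had a log2 change of -1.85 ± 0.15 (adjusted p = 3.69e-09) in WSB/EiJ, -0.40 ± 0.15 (adjusted p = 0.0406) in C3H/HeJ (0.040 under spike-in scaling) and -0.38 ± 0.15 (adjusted p = 0.121) in A/J. WSB/EiJ differed from A/J by -1.47 ± 0.22 (adjusted p = 3.56e-05) and from C3H/HeJ by -1.45 ± 0.22 (adjusted p = 0.000121). The C3H/HeJ call was lost without control 1, 3 or 4 or CFD 1 or 2 (adjusted p 0.0704 to 0.124), and a second probe was called in A/J as well (-0.68).

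Gstm6 fell in every strain under every scaling tried. Gstm6 in WSB/EiJ livers read 4696, 4891, 5163 and 5304 on the CFD arrays, against 12607, 15975, 17018 and 12660.4 on the control arrays. Gstm6 in C3H/HeJ livers read 5760.2, 8622, 8249 and 7303 on the CFD arrays, against 15525, 14596, 12467 and 14252 on the control arrays. Gstm6 in A/J livers read 10101, 8420.4, 9249.6 and 10145 on the CFD arrays, against 20451, 16733, 17043 and 13567 on the control arrays. The 3 control groups overlapped, and CFD arrays were lower than all controls in each strain. Its log2 changes were -1.53 ± 0.14 (adjusted p = 8.53e-09), -0.94 ± 0.14 (adjusted p = 2.67e-05) and -0.83 ± 0.14 (adjusted p = 0.000668) in WSB/EiJ, C3H/HeJ and A/J in that order, and WSB/EiJ differed from A/J by -0.70 ± 0.19 (adjusted p = 0.00564) and from C3H/HeJ by -0.59 ± 0.19 (adjusted p = 0.029).

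Gstm7 also fell in all strains. Gstm7 in WSB/EiJ livers read 536, 532, 731 and 469.7 on the CFD arrays, against 1021, 1121, 1173 and 1184 on the control arrays. Gstm7 in C3H/HeJ livers read 442, 533, 730.0 and 787 on the CFD arrays, against 1211, 671, 974 and 1226 on the control arrays. Gstm7 in A/J livers read 647, 659, 551 and 855 on the CFD arrays, against 1440.2, 1058, 1267 and 1031 on the control arrays. The C3H/HeJ ranges overlapped through control 2, and the other strains were apart. The diet effect on Gstm7 was -1.00 ± 0.20 (adjusted p = 0.000172) in WSB/EiJ, -0.71 ± 0.20 (adjusted p = 0.00773) in C3H/HeJ and -0.83 ± 0.20 (adjusted p = 0.012) in A/J, the last lost without CFD 3 (adjusted p 0.0550). The differences between strains in this change were not called (adjusted p 0.844, 0.624 and 0.458).

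Gstm3 gave different answers by probe. Its brightest probe was called in no strain (log2 changes of 0.10, 0.52 and -0.25 in WSB/EiJ, C3H/HeJ and A/J). A second Gstm3 probe read 3732, 4088, 3521 and 2948 on the CFD arrays, against 6915, 6527, 6848 and 7782 on the control arrays in WSB/EiJ, a called change of -0.98 ± 0.30 (adjusted p = 0.0069). It read 3665, 7068, 5000.1 and 2932 on the CFD arrays, against 5648, 1585, 5142 and 5202 on the control arrays in C3H/HeJ, where control 2 was far below the others. In WSB/EiJ every CFD value of this probe lay below every control value. The second probe is shown with probes of Gstm6 and Gstm7 from the same coding stretch, because mu class genes are close paralogs that an array may not fully separate. In mm9 the files place them at chr3:107769290-107770549 (Gstm3), chr3:107745052-107745111 (Gstm6) and chr3:107732073-107733247 (Gstm7), all on the minus strand, and capitals mark bases that differ from the Gstm3 probe. Gstm6 differs at 17 of 56 shared positions and Gstm7 at 19 of 59. How far each probe also binds its paralogs was not tested.
Gstm3: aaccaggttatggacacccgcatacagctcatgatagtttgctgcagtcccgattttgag
Gstm6: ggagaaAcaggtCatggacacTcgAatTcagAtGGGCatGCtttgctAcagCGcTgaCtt
Gstm7: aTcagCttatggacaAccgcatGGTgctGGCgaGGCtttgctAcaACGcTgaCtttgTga

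Gstp1, the main pi class transferase of liver, had the largest fall of the 41 genes in WSB/EiJ and the largest strain difference on the control diet. Gstp1 in WSB/EiJ livers read 25674, 30058, 34650.2 and 33599.7 on the CFD arrays, against 141432, 151217, 162166 and 160878 on the control arrays. Gstp1 in C3H/HeJ livers read 47289, 37899, 50724 and 72091 on the CFD arrays, against 86715, 111581, 92459 and 109780.0 on the control arrays. Gstp1 in A/J livers read 21288, 17217, 18943 and 16459.9 on the CFD arrays, against 21509, 24871, 22382 and 25775 on the control arrays. CFD arrays were below controls in every strain, and the A/J controls lay below every WSB/EiJ and C3H/HeJ array, except that the highest of them just passed the lowest WSB/EiJ CFD array. The log2 changes were -2.32 ± 0.15 (adjusted p = 1.46e-10) in WSB/EiJ, -0.98 ± 0.15 (adjusted p = 4.6e-05) in C3H/HeJ and -0.36 ± 0.15 (adjusted p = 0.132) in A/J. The WSB/EiJ change differed from that in A/J by -1.96 ± 0.21 (adjusted p = 1.48e-06) and from that in C3H/HeJ by -1.34 ± 0.21 (adjusted p = 0.000181). On the control diet WSB/EiJ was 6.52-fold and C3H/HeJ 4.22-fold above A/J, log2 differences of 2.71 ± 0.15 (adjusted p = 1.24e-11) and 2.08 ± 0.15 (adjusted p = 1.58e-09).

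Gstp2 is the neighbouring pi class paralog. Gstp2 in WSB/EiJ livers read 91049, 98108, 117774 and 109762 on the CFD arrays, against 200501, 216317, 232683 and 236261 on the control arrays. Gstp2 in C3H/HeJ livers read 122002, 110524, 167033 and 170106 on the CFD arrays, against 182911, 239271, 159209 and 254172 on the control arrays. Gstp2 in A/J livers read 107010.3, 101351, 104924 and 110995 on the CFD arrays, against 140007, 144556, 131963 and 128934 on the control arrays. These come from its brightest probe, which the files do not place in the genome, and CFD and control arrays overlapped in C3H/HeJ alone. Its log2 change was -1.09 ± 0.14 (adjusted p = 1.35e-06) in WSB/EiJ, -0.55 ± 0.14 (adjusted p = 0.00443) in C3H/HeJ and -0.36 ± 0.14 (adjusted p = 0.115) in A/J. WSB/EiJ differed from A/J by -0.73 ± 0.20 (adjusted p = 0.00633).

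A second Gstp2 probe, in the coding sequence, read 25886, 31235, 33964 and 35077 on the CFD arrays, against 160963, 169362, 194889 and 178051 on the control arrays in WSB/EiJ. The same probe read 47188, 39827, 51887 and 72242 on the CFD arrays, against 89191, 116995, 97013 and 117150.2 on the control arrays in C3H/HeJ. In A/J it read 20796, 16551, 20895 and 16386 on the CFD arrays, against 22681, 25284, 21974 and 24831 on the control arrays. Its changes were close to those of Gstp1, with log2 values of -2.48, -1.02 and -0.35 in WSB/EiJ, C3H/HeJ and A/J, and so was its control-diet difference of WSB/EiJ over A/J (2.89). The probes of Gstp1 (mm9 chr19:4035908-4036723) and Gstp2 (chr19:4040983-4041042), both on the minus strand, are shown for their overlap of 35 bases, in which 30 match and the 5 that differ are in capitals. Whether this probe measures Gstp2 apart from Gstp1 was not tested.
Gstp1: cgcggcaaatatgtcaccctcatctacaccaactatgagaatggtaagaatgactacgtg
Gstp2: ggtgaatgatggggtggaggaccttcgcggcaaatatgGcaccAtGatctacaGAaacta

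**Figure D4:**
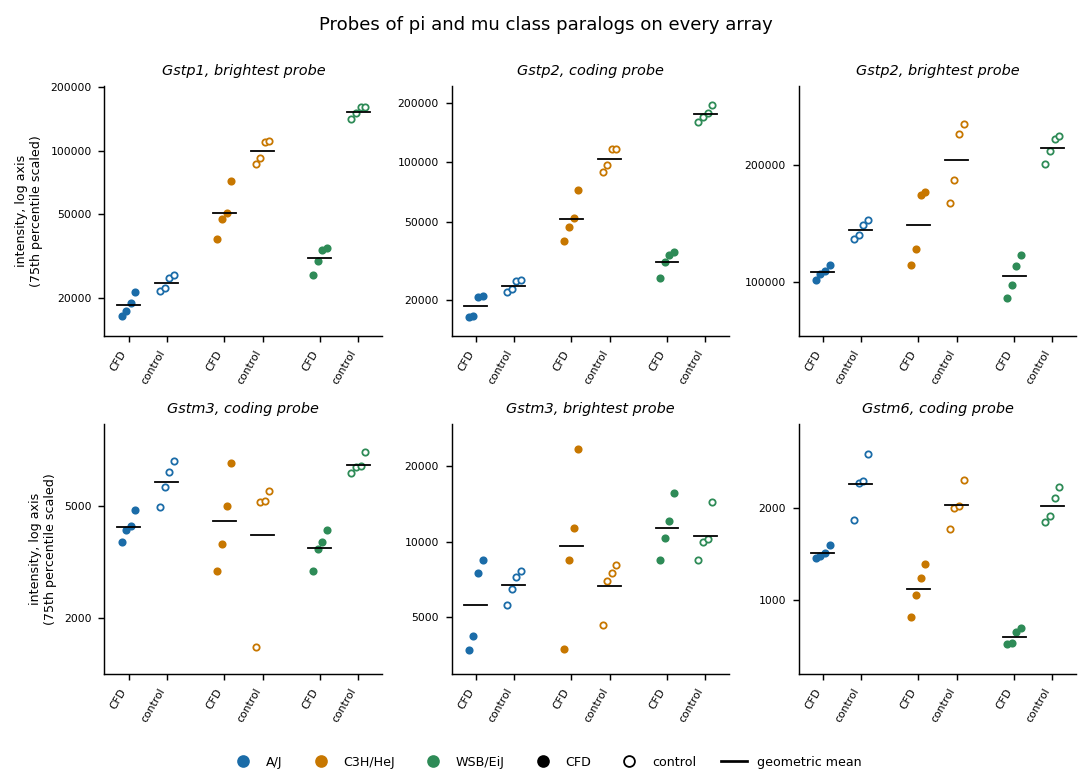
Intensity of single probes of Gstp1, Gstp2, Gstm3 and Gstm6 on every array (vertical axis, logarithmic), CFD filled, control open, bars are geometric means. The Gstp2 coding probe follows Gstp1, with WSB/EiJ CFD arrays far below WSB/EiJ controls, while the brightest Gstp2 probe spans a narrower range, and the Gstm3 probes differ in WSB/EiJ.

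Theta class members differed among themselves. Gstt3 in WSB/EiJ livers read 4761, 4355, 5488 and 4044 on the CFD arrays, against 18832, 12716, 19141 and 15251 on the control arrays. Gstt3 in C3H/HeJ livers read 2260.2, 2742, 6940.0 and 5184 on the CFD arrays, against 5677, 6650.4, 7211 and 9129.6 on the control arrays. Gstt3 in A/J livers read 2109.8, 2644, 1467 and 4687 on the CFD arrays, against 9882, 5759.8, 10481 and 7001 on the control arrays. WSB/EiJ and A/J arrays separated by diet, and C3H/HeJ CFD 3 lay among its controls. For Gstt3 the log2 change was -1.81 ± 0.33 (adjusted p = 5.82e-05) in WSB/EiJ, -0.87 ± 0.33 (adjusted p = 0.0369) in C3H/HeJ and -1.69 ± 0.33 (adjusted p = 0.00263) in A/J. The C3H/HeJ call was lost without control 2, 3 or 4 or CFD 1 or 2 (adjusted p 0.0549 to 0.153). Gstt1 and Gstt2 fell in WSB/EiJ, with log2 changes of -0.57 and -0.53, and were not called in the other strains. Under spike-in scaling the WSB/EiJ values were 0.39 and 0.43. The Gstt2 call was lost without WSB/EiJ control 3, CFD 2 or CFD 4 (adjusted p 0.0549 to 0.0578). Gstt1 was also lower in WSB/EiJ than in A/J on the control diet (-1.71 ± 0.15, adjusted p = 1.48e-08), but its second probe gave -0.30, not called.

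The kappa, omega and zeta transferases fell in WSB/EiJ, and Gstk1 and Gsto1 also in C3H/HeJ. Gsto1, which reduces dehydroascorbate and thiol adducts, in WSB/EiJ livers read 7389.9, 6256, 8349 and 6047 on the CFD arrays, against 22278, 21154, 24867 and 21230.2 on the control arrays. Gsto1 in C3H/HeJ livers read 6700.0, 6300.1, 10752 and 12363 on the CFD arrays, against 14457, 17918, 16498 and 17436 on the control arrays. Gsto1 in A/J livers read 7134, 7719, 6607 and 8637 on the CFD arrays, against 10872, 9039.8, 11471 and 8896 on the control arrays. CFD arrays lay below all controls in each strain, though the A/J change missed the threshold. Gsto1 had a log2 change of -1.68 ± 0.17 (adjusted p = 5.89e-08) in WSB/EiJ, -0.93 ± 0.17 (adjusted p = 0.000298) in C3H/HeJ and -0.42 ± 0.17 (adjusted p = 0.13) in A/J, and WSB/EiJ differed from A/J by -1.27 ± 0.25 (adjusted p = 0.000415) and from C3H/HeJ by -0.75 ± 0.25 (adjusted p = 0.0295).

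Gstk1 encodes a mitochondrial and peroxisomal transferase. Gstk1 in WSB/EiJ livers read 11766, 12375, 13642 and 11362 on the CFD arrays, against 29034, 28577, 29666 and 27605 on the control arrays. Gstk1 in C3H/HeJ livers read 8031, 9118, 13505 and 17524 on the CFD arrays, against 16027, 15782, 15703 and 15773 on the control arrays. Gstk1 in A/J livers read 10578, 10732, 9146 and 13046 on the CFD arrays, against 15169.8, 12507, 15393 and 11719 on the control arrays. WSB/EiJ separated by diet, and C3H/HeJ CFD 4 exceeded all its controls. The diet effect on Gstk1 was -1.23 ± 0.17 (adjusted p = 2.7e-06) in WSB/EiJ, -0.46 ± 0.17 (adjusted p = 0.0332) in C3H/HeJ and -0.33 ± 0.17 (adjusted p = 0.222) in A/J, and WSB/EiJ differed from A/J by -0.89 ± 0.24 (adjusted p = 0.00525) and from C3H/HeJ by -0.76 ± 0.24 (adjusted p = 0.0255). The C3H/HeJ call was lost without any of 6 C3H/HeJ arrays (each control, CFD 1 and CFD 2; adjusted p 0.0554 to 0.158).

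Gstz1 encodes maleylacetoacetate isomerase of tyrosine breakdown. Gstz1 in WSB/EiJ livers read 24941, 24822, 30703 and 23173 on the CFD arrays, against 54350.0, 59105, 59154 and 65261 on the control arrays. Gstz1 in C3H/HeJ livers read 30686, 32633, 51908 and 66888 on the CFD arrays, against 59114, 57339, 53674 and 60561 on the control arrays. Gstz1 in A/J livers read 44415, 47812, 41830.3 and 57569 on the CFD arrays, against 65226, 56126, 62242 and 48318 on the control arrays. Only WSB/EiJ arrays separated by diet, and C3H/HeJ CFD 1 and 2 were low beside CFD 3 and 4. Its log2 change was -1.20 ± 0.18 (adjusted p = 6.96e-06) in WSB/EiJ, -0.42 ± 0.18 (adjusted p = 0.0677) in C3H/HeJ and -0.28 ± 0.18 (adjusted p = 0.349) in A/J, with a WSB/EiJ minus A/J difference of -0.93 ± 0.26 (adjusted p = 0.00608) and a WSB/EiJ minus C3H/HeJ difference of -0.79 ± 0.26 (adjusted p = 0.0295).

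The microsomal transferases moved apart from each other. Mgst1, abundant in liver endoplasmic reticulum, in WSB/EiJ livers read 41146, 46439.8, 56393 and 47705 on the CFD arrays, against 127231, 146224, 159578 and 148864 on the control arrays. Mgst1 in C3H/HeJ livers read 79963, 76663, 113117 and 127321 on the CFD arrays, against 128853, 138946, 121439 and 167016 on the control arrays. Mgst1 in A/J livers read 98802, 101974, 89885 and 110627 on the CFD arrays, against 128065, 114096, 134434 and 109892 on the control arrays. WSB/EiJ CFD arrays were far below their controls, and the other strains overlapped. For Mgst1 the log2 change was -1.61 ± 0.15 (adjusted p = 1.21e-08) in WSB/EiJ, -0.51 ± 0.15 (adjusted p = 0.00835) in C3H/HeJ and -0.28 ± 0.15 (adjusted p = 0.238) in A/J. WSB/EiJ differed from A/J by -1.33 ± 0.21 (adjusted p = 5.72e-05) and from C3H/HeJ by -1.10 ± 0.21 (adjusted p = 0.000907).

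Mgst3 rose in C3H/HeJ and was called in neither other strain. Mgst3 in C3H/HeJ livers read 1149.8, 1496, 1668 and 1077 on the CFD arrays, against 638, 642, 829.6 and 748 on the control arrays. Mgst3 in WSB/EiJ livers read 1280.0, 1018, 1208 and 1127 on the CFD arrays, against 1114, 922, 1362 and 853 on the control arrays. Mgst3 in A/J livers read 1536, 1283, 1611 and 1392 on the CFD arrays, against 1592, 1463, 1581 and 1327 on the control arrays. The C3H/HeJ controls were the lowest group, and all C3H/HeJ CFD arrays lay above them. Mgst3 had a log2 change of 0.90 ± 0.15 (adjusted p = 0.000108) in C3H/HeJ, 0.14 ± 0.15 (adjusted p = 0.396) in WSB/EiJ and -0.04 ± 0.15 (adjusted p = 0.9) in A/J, and C3H/HeJ exceeded A/J by 0.94 ± 0.21 (adjusted p = 0.0159). WSB/EiJ minus C3H/HeJ was -0.76 ± 0.21 (adjusted p = 0.0134).

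Mgst2, which also makes leukotriene C4, was near the background. Mgst2 in WSB/EiJ livers read 40.2, 28, 22.5 and 142 on the CFD arrays, against 13.8, 11.4, 10.4 and 6.30 on the control arrays, and no WSB/EiJ control was well above background. Mgst2 in C3H/HeJ livers read 47.1, 57, 39.3 and 34.6 on the CFD arrays, against 15.4, 5.93, 2.60 and 4.78 on the control arrays, with 1 control above background. Mgst2 in A/J livers read 40.3, 7.91, 19 and 9.45 on the CFD arrays, against 12.6, 18, 6.59 and 319 on the control arrays. A/J control 4 stood far above every other array. CFD livers of WSB/EiJ were at least 3.40-fold above the controls (adjusted p = 0.0343 in limma), taking the dim side at the lowest signal well above background. That call was lost without WSB/EiJ control 2, 3 or 4 or CFD 1 or 4 (adjusted p 0.0507 to 0.132). Mgst2 was also called higher in C3H/HeJ CFD livers (adjusted p = 0.0102), but 3 of the 4 controls were not well above background, so no size is given, and the call was lost under the second background correction (adjusted p = 0.383). It was not called in A/J (adjusted p = 0.613). Mgst2 passed the background filter only through the CFD groups of WSB/EiJ and C3H/HeJ, the groups then called higher. Its rises, counted above in both strains, are therefore partly built into the filter and are no separate support.

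Glutathione peroxidases reduce hydrogen and lipid peroxides, and they did not move together. Gpx3 (probe at mm9 chr11:54723436-54723495) is the secreted plasma form. Gpx3 in WSB/EiJ livers read 845, 668, 479 and 492 on the CFD arrays, against 90.4, 68.6, 82 and 77.5 on the control arrays. Gpx3 in C3H/HeJ livers read 100.2, 113, 91.5 and 68.5 on the CFD arrays, against 53.9, 40.7, 38.6 and 35 on the control arrays. Gpx3 in A/J livers read 68.5, 119, 80.4 and 61.2 on the CFD arrays, against 25.1, 43.4, 35.4 and 66.2 on the control arrays. A/J overlapped through control 4 and the lowest CFD array, and the other strains were apart. The diet effect on Gpx3 was 2.93 ± 0.26 (adjusted p = 7.02e-09) in WSB/EiJ, the largest rise of the 41 genes there, 1.15 ± 0.26 (adjusted p = 0.00147) in C3H/HeJ and 0.99 ± 0.26 (adjusted p = 0.0172) in A/J. WSB/EiJ exceeded A/J by 1.94 ± 0.36 (adjusted p = 0.000312) and C3H/HeJ by 1.78 ± 0.36 (adjusted p = 0.00158). The A/J call was lost without control 1 or 3 or CFD 2 or 3 (adjusted p 0.0501 to 0.0706).

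Gpx7 (probe at mm9 chr4:108072995-108073054) is a peroxidase of the endoplasmic reticulum. Gpx7 in WSB/EiJ livers read 349, 368, 299 and 300.0 on the CFD arrays, against 91.9, 111, 125 and 63.4 on the control arrays. Gpx7 in C3H/HeJ livers read 136, 214, 133 and 145 on the CFD arrays, against 21.9, 23.3, 19.1 and 27.6 on the control arrays. Gpx7 in A/J livers read 51.2, 36, 64.5 and 37.7 on the CFD arrays, against 25.7, 31.8, 25.4 and 34.4 on the control arrays. Ranges were apart in each strain, widest in C3H/HeJ. The log2 change was 1.79 ± 0.21 (adjusted p = 3.06e-07) in WSB/EiJ, 2.76 ± 0.21 (adjusted p = 1.58e-08) in C3H/HeJ and 0.66 ± 0.21 (adjusted p = 0.0482) in A/J, the last lost on leaving out any of 15 of the 24 arrays (adjusted p up to 0.183). C3H/HeJ exceeded A/J by 2.09 ± 0.30 (adjusted p = 0.000961), WSB/EiJ exceeded A/J by 1.12 ± 0.30 (adjusted p = 0.0043) and differed from C3H/HeJ by -0.97 ± 0.30 (adjusted p = 0.0215), the last turning to 0.037 under the second background correction.

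Stellate cell and fibroblast markers moved beside Gpx3 and Gpx7. Of 12 such genes, 11 rose in WSB/EiJ (beside 24.5% of all genes), 9 in C3H/HeJ (18.1%) and 3 in A/J (5.92%), and none fell. Their summed intensity was 56018 to 88891 in WSB/EiJ CFD livers, against 13672 to 19253 in controls. It was 20974 to 53623 in C3H/HeJ CFD livers, against 11934 to 17636 in controls, and 18621 to 33156 in A/J CFD livers, against 13285 to 26825 in A/J controls. Collagen markers such as Col1a1 were above background on every array, and the part of these cells in the Gpx3 and Gpx7 results was not tested.

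Gpx1, the abundant cytosolic peroxidase of hepatocytes, fell in WSB/EiJ and C3H/HeJ at the 75th percentile scaling. Gpx1 in WSB/EiJ livers read 124939.7, 118749.9, 135641 and 125441 on the CFD arrays, against 215719.7, 213139.6, 253221 and 227557 on the control arrays. Gpx1 in C3H/HeJ livers read 135136, 136267, 175367 and 196676 on the CFD arrays, against 180272, 284829.9, 184050.5 and 196633 on the control arrays. Gpx1 in A/J livers read 150084, 157970.2, 139792 and 171133 on the CFD arrays, against 185985, 172238, 188582 and 154170.1 on the control arrays. Only WSB/EiJ separated by diet. For Gpx1 the log2 change was -0.85 ± 0.14 (adjusted p = 1.48e-05) in WSB/EiJ, -0.39 ± 0.14 (adjusted p = 0.0261) in C3H/HeJ and -0.18 ± 0.14 (adjusted p = 0.426) in A/J, and WSB/EiJ differed from A/J by -0.67 ± 0.19 (adjusted p = 0.00778). The sign turned under quantile (0.12) and spike-in (0.11) scaling in WSB/EiJ and likewise in C3H/HeJ (0.091 and 0.052), where the call was also lost without control 2, CFD 1 or CFD 2 (adjusted p 0.0973 to 0.118).

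Gpx4, which protects membranes from lipid peroxides, rose in A/J and C3H/HeJ. Gpx4 in C3H/HeJ livers read 23581, 24955, 23913 and 23662 on the CFD arrays, against 16471, 15942, 16468 and 19188 on the control arrays. Gpx4 in A/J livers read 23487, 20035, 22679.5 and 19819 on the CFD arrays, against 17189, 15885, 19021 and 14527 on the control arrays. Gpx4 in WSB/EiJ livers read 22417, 19222, 21604 and 18642 on the CFD arrays, against 19352, 17385, 20739 and 21011 on the control arrays. CFD arrays lay above all controls in C3H/HeJ and A/J and overlapped in WSB/EiJ. Gpx4 had a log2 change of 0.50 ± 0.10 (adjusted p = 0.000363) in C3H/HeJ, 0.37 ± 0.10 (adjusted p = 0.0162) in A/J (lost without CFD 1 or 3, adjusted p 0.0612 to 0.0679) and 0.06 ± 0.10 (adjusted p = 0.575) in WSB/EiJ. WSB/EiJ minus C3H/HeJ was -0.44 ± 0.13 (adjusted p = 0.0215), which was lost without WSB/EiJ CFD 4 (adjusted p 0.0505) and turned to 0.083 under spike-in scaling.

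Gpx2, a form best known from gut epithelium, was near background. Gpx2 in WSB/EiJ livers read 42.9, 42.1, 21.7 and 39.1 on the CFD arrays, against 11.9, 15.6, 15.4 and 15.2 on the control arrays. Gpx2 in C3H/HeJ livers read 19.6, 28.1, 12 and 14.5 on the CFD arrays, against 13.6, 4.12, 14.2 and 10.6 on the control arrays. Gpx2 in A/J livers read 13.8, 17.4, 22.1 and 17 on the CFD arrays, against 26.1, 22.8, 16.4 and 327 on the control arrays. A/J control 4 was again far above all other arrays, and only 1 WSB/EiJ control and 2 C3H/HeJ controls were well above background. No diet effect was called with all arrays in the fit, but without A/J control 4 the gene was called higher in WSB/EiJ (adjusted p = 0.00185) and C3H/HeJ (adjusted p = 0.0371). The WSB/EiJ minus A/J difference was 2.57 ± 0.88 (adjusted p = 0.0214) and 1.59 (adjusted p = 0.0136) without that array. Gpx2 passed the background filter only through the WSB/EiJ CFD group. A higher level in that group is therefore partly built into the filter, and its WSB/EiJ results are no separate support.

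Catalase and the superoxide dismutases, which remove hydrogen peroxide and superoxide, fell most in WSB/EiJ. Cat (probe at mm9 chr2:103297086-103300428) in WSB/EiJ livers read 6419.8, 5357, 7399.5 and 6150.4 on the CFD arrays, against 27009.9, 29635, 35455 and 24862 on the control arrays. Cat in C3H/HeJ livers read 8813, 8613, 15995 and 13778 on the CFD arrays, against 22878, 20787, 21875 and 22930.0 on the control arrays. Cat in A/J livers read 13072, 14961, 13994 and 17867 on the CFD arrays, against 22666, 21542, 22765 and 19077 on the control arrays. Every CFD array was below every control of its strain, and C3H/HeJ CFD 1 and 2 were lower than CFD 3 and 4. The diet effect on Cat was -2.20 ± 0.17 (adjusted p = 1.07e-09) in WSB/EiJ, -0.96 ± 0.17 (adjusted p = 0.000165) in C3H/HeJ and -0.53 ± 0.17 (adjusted p = 0.0478) in A/J, the last lost on leaving out any of 14 of the 24 arrays (adjusted p 0.0509 to 0.148). The WSB/EiJ change differed from that in A/J by -1.67 ± 0.24 (adjusted p = 2.19e-05) and from that in C3H/HeJ by -1.25 ± 0.24 (adjusted p = 0.000923).

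Sod1, the cytosolic dismutase, in WSB/EiJ livers read 65956, 63971, 68486 and 65299 on the CFD arrays, against 157045, 160644, 197587 and 167569 on the control arrays. Sod1 in C3H/HeJ livers read 81265, 79392, 116268 and 128241 on the CFD arrays, against 136759, 96245, 135549.9 and 147352 on the control arrays. Sod1 in A/J livers read 106611, 102909, 104791 and 131623 on the CFD arrays, against 152942, 141094, 151117 and 136164 on the control arrays. WSB/EiJ and A/J arrays separated by diet, and C3H/HeJ control 2 lay among its CFD arrays. Its log2 change was -1.37 ± 0.15 (adjusted p = 9.55e-08) in WSB/EiJ, -0.36 ± 0.15 (adjusted p = 0.0492) in C3H/HeJ and -0.39 ± 0.15 (adjusted p = 0.097) in A/J. WSB/EiJ differed from A/J by -0.98 ± 0.21 (adjusted p = 0.000849) and from C3H/HeJ by -1.00 ± 0.21 (adjusted p = 0.00177). The C3H/HeJ call was lost on leaving out any of 19 of the 24 arrays and turned positive under quantile (0.097) and spike-in (0.076) scaling.

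Sod2, the mitochondrial dismutase, in WSB/EiJ livers read 27265, 25473, 30123 and 25049 on the CFD arrays, against 59025, 60423, 67170.4 and 62665 on the control arrays. Sod2 in C3H/HeJ livers read 32404, 29265, 44582 and 47441 on the CFD arrays, against 49542, 28515, 50989 and 56257 on the control arrays. Sod2 in A/J livers read 36579, 38600.1, 37624 and 44552 on the CFD arrays, against 48949.7, 41959, 48190.2 and 38037 on the control arrays. Only WSB/EiJ separated by diet, and C3H/HeJ control 2 lay below every CFD array of that strain. Without that control the C3H/HeJ fall of Sod2 passed the test (adjusted p = 0.0124). For Sod2 the log2 change was -1.21 ± 0.17 (adjusted p = 3.93e-06) in WSB/EiJ, -0.25 ± 0.17 (adjusted p = 0.244) in C3H/HeJ and -0.17 ± 0.17 (adjusted p = 0.576) in A/J, with WSB/EiJ differing from A/J by -1.04 ± 0.25 (adjusted p = 0.00199) and from C3H/HeJ by -0.96 ± 0.25 (adjusted p = 0.00822).

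Hepatocyte function genes fell beside Cat, Sod1, Gpx1 and the transferases. Of 17 tested, 17 fell in WSB/EiJ (beside 47.6% of all genes), 12 in C3H/HeJ (27.1%) and 4 in A/J (4.39%). Their summed intensity was 1133639 to 1362971 in WSB/EiJ CFD livers, against 2350735 to 2644237 in controls. It was 1188648 to 1978241 in C3H/HeJ CFD livers, against 1923647 to 2717374 in controls, and 1505123 to 2136059 in A/J CFD livers, against 2022287 to 2535376 in A/J controls. The list median was -1.15 in WSB/EiJ, -0.54 in C3H/HeJ and -0.40 in A/J, and its part in the antioxidant falls was not tested.

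The 3 thioredoxin system members Txnrd1, Txn1 and Prdx1 fell in WSB/EiJ, all with the opposite sign under spike-in scaling. Txnrd1 encodes thioredoxin reductase. Txnrd1 in WSB/EiJ livers read 8363, 8078, 7842 and 9090.0 on the CFD arrays, against 12435, 11894, 14680.2 and 11761 on the control arrays. Txnrd1 in C3H/HeJ livers read 6327, 6244, 7592 and 7725 on the CFD arrays, against 6479, 4720.0, 7083 and 8286 on the control arrays. Txnrd1 in A/J livers read 8926, 6658, 8021 and 6155 on the CFD arrays, against 6884, 7655, 7663 and 6685 on the control arrays. The WSB/EiJ controls were the highest group and its CFD arrays lay near the top of the range of the other strains. Txnrd1 had a log2 change of -0.60 ± 0.14 (adjusted p = 0.000866) in WSB/EiJ (0.36 under spike-in and 0.034 under quantile scaling), 0.09 ± 0.14 (adjusted p = 0.622) in C3H/HeJ and 0.03 ± 0.14 (adjusted p = 0.914) in A/J. WSB/EiJ differed from A/J by -0.63 ± 0.20 (adjusted p = 0.0146) and from C3H/HeJ by -0.69 ± 0.20 (adjusted p = 0.0169).

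Txn1, thioredoxin itself, in WSB/EiJ livers read 7915, 9569.8, 9684 and 7713 on the CFD arrays, against 14883, 14704, 13129 and 15391 on the control arrays. Txn1 in C3H/HeJ livers read 11575, 12098, 11788 and 13153 on the CFD arrays, against 12888, 10718, 14092 and 13275 on the control arrays. Txn1 in A/J livers read 11199, 12946, 11749 and 12129 on the CFD arrays, against 12040.4, 14390.1, 15516 and 11298 on the control arrays. WSB/EiJ separated by diet, and the other strains overlapped. The diet effect on Txn1 was -0.74 ± 0.11 (adjusted p = 5.16e-06) in WSB/EiJ (0.22 under spike-in scaling), -0.06 ± 0.11 (adjusted p = 0.662) in C3H/HeJ and -0.14 ± 0.11 (adjusted p = 0.442) in A/J. WSB/EiJ differed from A/J by -0.60 ± 0.15 (adjusted p = 0.00357), which was 0.016 under spike-in scaling, and from C3H/HeJ by -0.68 ± 0.15 (adjusted p = 0.00364). Prdx1, a peroxide-reducing peroxiredoxin, fell in WSB/EiJ (-0.81 ± 0.33, adjusted p = 0.0323, 0.15 under spike-in scaling), a call lost without any of 5 WSB/EiJ arrays (controls 3 and 4, CFD 1, 2 and 4; adjusted p 0.0549 to 0.0638). A second Prdx1 probe gave -0.92 ± 0.13 (adjusted p = 3e-06) in WSB/EiJ.

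On the control diet the strains already differed. Of the 41 genes, WSB/EiJ was higher than A/J in 17 (beside 27.3% of all genes) and lower in 8 (18.5%). It was higher than C3H/HeJ in 18 (23.3%) and lower in 4 (18.3%). C3H/HeJ was higher than A/J in 3 (13.7%) and lower in 7 (10.8%). The shares of all genes called in either direction were 45.8%, 41.6% and 24.5% in that order. For C3H/HeJ against A/J, the share of the 41 genes called (24.4%) was near that of all genes. The control groups did not overlap for 19 genes that were higher and 6 that were lower in WSB/EiJ than in A/J (46.6% of all genes), 20 and 3 against C3H/HeJ (42.2%), and 4 and 5 for C3H/HeJ against A/J (27.3%). The largest called differences of WSB/EiJ over A/J were Gstp1 (2.71), Gstt1 (-1.71), Gpx7 (1.71), Gpx2 (-1.55, and -0.56 without A/J control 4) and Nqo1 (1.42). Those of WSB/EiJ over C3H/HeJ were Nqo1 (2.53), Gpx7 (2.06), Gsta2 (1.46), Gstt1 (-1.28) and Gstt3 (1.20). The called ones of C3H/HeJ over A/J were led by Gpx2 (-2.14, and -1.15 without A/J control 4), Gstp1 (2.08), Nqo1 (-1.11), Mgst3 (-1.07) and Gsto1 (0.72). Hmox1 was lower in WSB/EiJ than in A/J (-1.12 ± 0.15, adjusted p = 2.69e-06) and C3H/HeJ (-0.59 ± 0.15, adjusted p = 0.00273). The Gpx2 difference between WSB/EiJ and A/J was lost on leaving out any of 20 arrays (adjusted p 0.0502 to 0.221), A/J control 4 among them, and that between C3H/HeJ and A/J without C3H/HeJ control 2 (adjusted p 0.0658). Strain differences in the sequence under a probe were not tested.

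**Figure D5:**
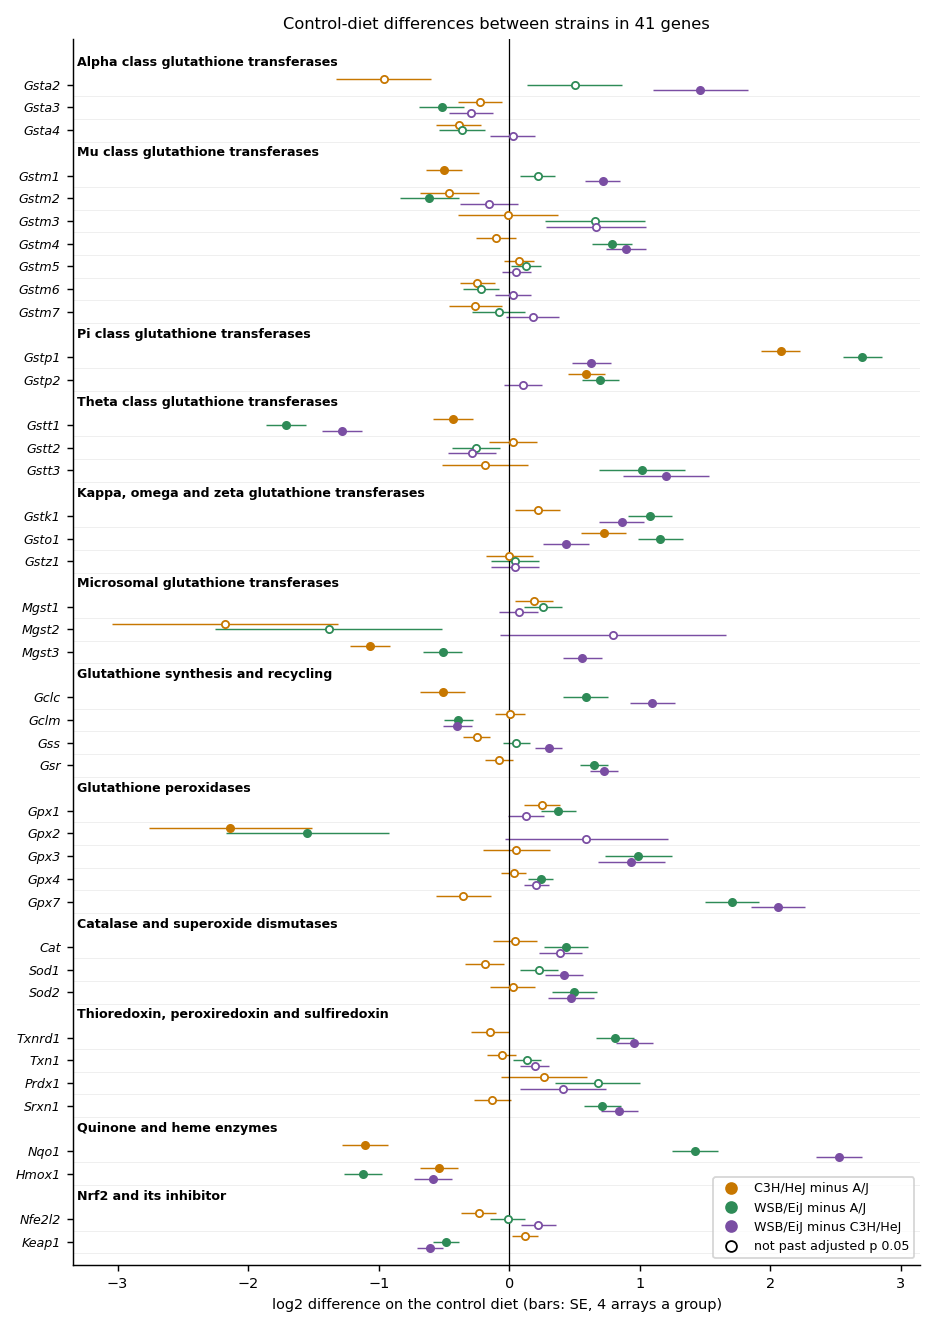
Control-diet differences between strains for the 41 genes on the log2 scale (horizontal axis, bars are SE, 4 arrays a group), as C3H/HeJ minus A/J (orange), WSB/EiJ minus A/J (green) and WSB/EiJ minus C3H/HeJ (purple); open circles missed an adjusted p of 0.05. Gstp1 stands furthest right for WSB/EiJ minus A/J (2.71) and Nqo1 for WSB/EiJ minus C3H/HeJ (2.53), while Gstt1 stands at -1.71 and Hmox1 at -1.12 in WSB/EiJ minus A/J.

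The diet effect itself differed between WSB/EiJ and A/J in 25 of the 41 genes, 6 more positive (beside 16.9% of all genes) and 19 more negative in WSB/EiJ (beside 31.8%), and between WSB/EiJ and C3H/HeJ in 23, 2 more positive (9.2%) and 21 more negative (16.9%). Between C3H/HeJ and A/J it differed in 3, Gpx7, Mgst3 and Nqo1, all more positive in C3H/HeJ, beside 3.43% of all genes (2.12% more positive and 1.3% more negative). Under all 6 scalings 5 positive and 6 negative differences of WSB/EiJ against A/J held, 2 and 6 against C3H/HeJ, and the Gpx7 difference between C3H/HeJ and A/J. The negative ones against A/J were Cat, Gsta3, Gstm4, Gsto1, Gstp1 and Mgst1. The share of all genes with a difference that held under all 6 scalings is not given here. These differences use the same arrays as the diet effects they compare. Against C3H/HeJ, the differences of Gstm6, Gstz1, Gsto1 and Gstk1 were lost on leaving out any of 7, 7, 6 and 3 arrays (adjusted p up to 0.0651, 0.0683, 0.0706 and 0.0592). Each of the 3 array slides held both diets of every strain. Within a slide, 32 to 34 of the 34 genes called in WSB/EiJ kept their sign. In C3H/HeJ 24 to 26 of 26 did so, and in A/J 12 of 12. These genes were chosen because they passed on all arrays, and each slide is a part of those arrays. Agreement in sign is therefore largely built in and is no separate test of the calls. The share of all genes that kept their sign is not given here.

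Other genes of the pathway gave the counts below. Of all genes, 24.5% rose and 47.6% fell in WSB/EiJ, 18.1% and 27.1% in C3H/HeJ, and 5.92% and 4.39% in A/J. The same shares apply to the lists in the paragraphs that follow. Of 21 further Nrf2-linked genes, 7 rose and 12 fell in WSB/EiJ, 6 and 6 in C3H/HeJ, and 3 fell in A/J. Pgd, of the NADPH-making pentose phosphate pathway, rose by 1.07 in WSB/EiJ and 0.56 in C3H/HeJ, while the transporter Abcc3 was at -2.06 and -0.79. Of 21 further glutathione genes, 4 rose and 15 fell in WSB/EiJ, 4 and 9 in C3H/HeJ, and 1 and 5 in A/J. Hpgds, a prostaglandin-synthesizing transferase, rose in each strain (3.41, 2.40 and 1.80 in WSB/EiJ, C3H/HeJ and A/J), and the glyoxalase gene Glo1 fell in each (-1.74, -1.05 and -0.58). Of 20 further thioredoxin, peroxiredoxin and dismutase genes, 2 rose and 16 fell in WSB/EiJ, 3 and 7 in C3H/HeJ, and 1 rose in A/J. Sod3, the extracellular dismutase, rose in each strain (0.37, 1.11 and 0.55), and Prdx6 fell in WSB/EiJ (-1.36).

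Genes that supply cysteine from methionine fell beside them. Of 13 such genes, 1 rose and 11 fell in WSB/EiJ, 1 and 8 in C3H/HeJ, and 1 and 4 in A/J. The riser in each strain was Mat2a, which makes S-adenosylmethionine (1.54, 1.77 and 1.33 in WSB/EiJ, C3H/HeJ and A/J). The cysteine-making enzymes Cbs and Cth fell in WSB/EiJ (-1.25 and -1.67), C3H/HeJ (-0.98 and -1.52) and A/J (-0.77 and -1.55). Of 10 Nrf2 partners and regulators, 4 rose and 4 fell in WSB/EiJ, 1 and 2 in C3H/HeJ, and 3 rose in A/J. Nfe2l1, a relative of Nfe2l2, rose in C3H/HeJ (0.56) and A/J (0.53), and Mafk, a small Maf partner, in WSB/EiJ (0.90) and A/J (0.38). Of 14 oxidant-producing enzymes, 6 rose and 6 fell in WSB/EiJ, 7 and 5 in C3H/HeJ, and 2 rose in A/J, with the phagocyte oxidase gene Cybb at 5.42 in WSB/EiJ and 2.58 in C3H/HeJ and the cytochrome Cyp2e1 at -1.90 in WSB/EiJ.

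Markers of further cell types moved in part. Of 9 biliary and progenitor markers tested, 7 rose in WSB/EiJ and 4 in C3H/HeJ. Among them, Krt7 passed the background filter only through CFD groups. Of 10 endothelial markers, 2 rose and 4 fell in WSB/EiJ, 3 rose in C3H/HeJ and 1 in A/J. Erythroid markers fell (4, 5 and 1 of 6 in WSB/EiJ, C3H/HeJ and A/J), with a summed intensity of 51000.2 to 86696 in WSB/EiJ CFD livers, against 117514 to 156727 in controls. Of 5 neutrophil markers tested, 1 rose and 3 fell in WSB/EiJ, 2 fell in C3H/HeJ and 1 in A/J. Their part in the results above was not tested.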

How the data were processed

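Total RNA (0.5 µg) of 24 liver samples was measured on single-colour Agilent arrays, 8 on each of 3 slides. The deposited scanner intensity files came from Agilent Feature Extraction 10.7, per the submitters' processing notes and the file headers, with background-subtracted, detrended signals. The log2 of the authors' deposited intensities, averaged per probe, equalled the log2 processed signal plus a constant per array for 99.8% to 99.9% of probes (within 0.01). The scaling step of the deposited table is not given in the sources used here. Here the log2 processed signal was reduced by each array's 75th percentile, outlier-flagged spots were left out (3332 in all), spots of a probe were averaged, and a probe was kept if every array of some group (4 of 4) read it well above background. The brightest probe stood for a gene, and genes were named from the files' symbols and accessions. Printed intensities are linear, at a common 75th percentile.

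One model with 6 groups was fitted with limma 3.58.1 in R 4.3.3, with contrasts for 3 diet effects, their 3 differences and 3 control-diet comparisons. Slide and replicate blocks, other scalings, background corrections and filters, array weights, stricter thresholds and leaving out each array were tried as alternatives. Tested on simulated data in which 200 of 15638 genes changed by 1 log2 unit, the fit recovered 73.5% in A/J, 75.5% in C3H/HeJ and 69% in WSB/EiJ. Every strain was simulated with the same spread and the same changed genes, so these figures do not rank the strains. Far fewer genes changed in the simulation than were called in the data, so the recovery there may differ. The number of arrays limits the precision. Same-numbered samples did not deviate together (correlations -0.35 to 0.06), so no pairing was used.

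Genes described array by array passed the test with a log2 change of at least 1, differed between strains in the diet effect, or belonged to Nfe2l2, Keap1, Gclc, Gclm, Gsr, Nqo1, Hmox1, Srxn1, Txnrd1, Gpx1, Cat and Sod1. Other members are given by values and counts, other lists by at most 2 genes in each direction with the lowest adjusted p in a strain, and control-diet comparisons by the 5 largest differences past an adjusted p of 0.05. The members and lists were chosen with earlier results of these data known. Sequences are the RefSeq promoters and the array's own probes.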

Additional observations from a re-analysis of the deposited data

Results flagged for a closer look

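Among 246 sets of 4 arrays (41 genes in 6 groups), 9 held 1 array far from the other 3, where chance gives about 1 in 20. In A/J, control 4 read 327 for Gpx2, against 16.4 to 26.1 on the other controls, and 8025 for Prdx1, against 30365 to 35517. A second Prdx1 probe did not show that low value. A/J CFD 4 read 131623 for Sod1, against 102909 to 106611. In C3H/HeJ, control 2 read 15589 for Prdx1, against 32510 to 34144, and CFD 3 read 245 for Nqo1, against 196 to 201. In WSB/EiJ, CFD 1 read 12898 for Srxn1, against 11795 to 11857, and CFD 3 read 21.7 for Gpx2, against 39.1 to 42.9. WSB/EiJ control 1 read 11.9 for Gpx2, against 15.2 to 15.6, and control 3 read 96284 for Gstm1, against 82523 to 83938.

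The diet effect differed between strains by limma's test of the difference in 51 cases. C3H/HeJ minus A/J was 2.09 for Gpx7, 0.94 for Mgst3 and 1.10 for Nqo1 on the log2 scale. WSB/EiJ minus A/J was above 0 for Gpx2 (2.57), Gpx3 (1.94), Gpx7 (1.12), Gsta2 (1.41), Hmox1 (1.41) and Nfe2l2 (0.61). It was below 0 for Cat (-1.67), Gclc (-0.92), Gclm (-0.78), Gpx1 (-0.67), Gsr (-0.66), Gsta3 (-1.34), Gstk1 (-0.89), Gstm1 (-0.68), Gstm4 (-1.47), Gstm6 (-0.70), Gsto1 (-1.27), Gstp1 (-1.96), Gstp2 (-0.73), Gstz1 (-0.93), Mgst1 (-1.33), Sod1 (-0.98), Sod2 (-1.04), Txn1 (-0.60) and Txnrd1 (-0.63). WSB/EiJ minus C3H/HeJ was above 0 for Gpx3 (1.78) and Hmox1 (1.38), and below 0 for Cat (-1.25), Gclc (-0.79), Gclm (-0.61), Gpx4 (-0.44), Gpx7 (-0.97), Gsr (-0.61), Gsta3 (-1.30), Gstk1 (-0.76), Gstm1 (-1.01), Gstm4 (-1.45), Gstm6 (-0.59), Gsto1 (-0.75), Gstp1 (-1.34), Gstz1 (-0.79), Mgst1 (-1.10), Mgst3 (-0.76), Nqo1 (-1.44), Sod1 (-1.00), Sod2 (-0.96), Txn1 (-0.68) and Txnrd1 (-0.69).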

How the results depend on the processing

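Counts of the 41 genes called, by setting, were as follows where they moved by over 1.5 times. The share of all genes called under each setting is not given here. Under spike-in scaling 18 rose and 10 fell in WSB/EiJ, 18 rose and 4 fell in C3H/HeJ, and 4 fell in A/J, with 1 difference between C3H/HeJ and A/J and 9 between WSB/EiJ and C3H/HeJ. Under quantile normalization 16 fell in WSB/EiJ and 7 in C3H/HeJ, with 15 differences of WSB/EiJ from A/J and 10 from C3H/HeJ. Under median centring 9 fell in C3H/HeJ, with 13 differences of WSB/EiJ from C3H/HeJ. Under the normexp background correction 9 fell in C3H/HeJ and 2 rose in A/J. With no background filter 3 rose in A/J. With only the groups compared in the fit, 5 fell in C3H/HeJ and 2 rose in A/J. Array weights gave 14 falls in A/J and 7 differences between C3H/HeJ and A/J. At an adjusted p of 0.01, 9 fell in C3H/HeJ, 1 rose and 4 fell in A/J, with 1 difference between C3H/HeJ and A/J and 14 between WSB/EiJ and C3H/HeJ. With a log2 change of at least 1 also required, 4 rose and 15 fell in WSB/EiJ, 4 and 0 in C3H/HeJ, and 0 and 1 in A/J, with 12 differences of WSB/EiJ from A/J and 10 from C3H/HeJ, and 9, 6 and 4 control-diet calls for WSB/EiJ over A/J, WSB/EiJ over C3H/HeJ and C3H/HeJ over A/J. With the replicate number as a block 3 rose in A/J, and the other counts of calls stayed within 1.5 times. The numbers do not pair samples.

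Leaving out 1 array at a time gave 6 to 8 rises and 24 to 27 falls in WSB/EiJ, 10 to 12 and 9 to 18 in C3H/HeJ, and 1 to 5 and 4 to 9 in A/J. It gave 24 to 29 differences of WSB/EiJ from A/J, 19 to 28 of WSB/EiJ from C3H/HeJ and 3 to 8 of C3H/HeJ from A/J. Control-diet calls numbered 19 to 25 for WSB/EiJ over A/J, 18 to 23 for WSB/EiJ over C3H/HeJ and 7 to 11 for C3H/HeJ over A/J. Leaving out 1 array also added calls in 13 diet effects of 11 genes, 19 differences of diet effects and 7 control-diet comparisons. In A/J the diet effects added were those of Gsta2, Gstm5, Sod1 and Nfe2l2, in C3H/HeJ those of Gstm3, Gstm5, Gstt1, Gstz1, Gclm, Gsr, Gpx2 and Sod2, and in WSB/EiJ that of Gpx2.

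Changes of sign are listed here only for values called in the main fit or under the changed setting. Values called in neither were left out, so the lists do not hold every change of sign in any strain. Listed log2 values under spike-in scaling in WSB/EiJ were Gclc 0.38, Gclm 0.075, Gpx1 0.11, Gsr 0.13, Gsta4 0.053 and Gstt1 0.39. Others there were Gstt2 0.43, Keap1 0.65, Nqo1 0.56, Prdx1 0.15, Txn1 0.22, Txnrd1 0.36 and Gstm2 0.96. In C3H/HeJ they were Gpx1 0.052, Gstm1 0.074, Gstm4 0.040, Sod1 0.076, Keap1 0.37 and Txn1 0.38. Under quantile normalization they were Gclc 0.0082, Gpx1 0.12, Gstt1 0.075, Keap1 0.087 and Txnrd1 0.034 in WSB/EiJ and Gpx1 0.091 and Sod1 0.097 in C3H/HeJ. Among differences of WSB/EiJ from A/J, Gpx1 was 0.071 and Gstm1 0.048 under quantile and Txn1 0.016 under spike-in scaling. Against C3H/HeJ, Gpx4 was 0.083 under spike-in scaling and Gpx7 0.037 under normexp. On the control diet, WSB/EiJ over A/J was -0.073 for Gpx4 and -0.35 for Gstz1 under quantile and -0.071 for Gpx4 under spike-in scaling, and WSB/EiJ over C3H/HeJ was -0.29 for Gstz1 and -0.26 for Mgst1 under quantile. The cause was not tested. Spike-in scaling shifted the median of all genes upward in each strain, and the median of all genes under quantile normalization is not given here. Mgst2 and Gpx2 lay near the background on most arrays.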
